A study of Mus musculus with 8 samples.

Results

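The genes described here are the heat shock proteins, DnaJ proteins and chaperonin subunits, taken by symbol: the Hspa, Hspb, Hspd, Hspe, Hsph and Hsp90 genes, Dnaja, Dnajb and Dnajc genes, Cct2 to Cct8, Tcp1, the heat shock factor genes and Bag3. They numbered 100 of the 45706 gene lines measured, 11 of them pseudogenes. RNA-seq was done on muscle stem cells, the progenitors of skeletal muscle, sorted as α7-integrin+ CD34+ and CD45- Sca1- CD31- CD11b- cells from hindlimb muscle of wild-type C57BL/6 females aged 8 to 12 weeks. The 3 cultured libraries came from such cells kept for 48 h on a hydrogel of 12 kPa in a medium with fetal bovine serum, and the 5 fresh libraries came from cells taken straight after sorting. Fresh replicates 4 and 5 shared a sequencing lane with the cultured libraries (run 2), and fresh replicates 1 to 3 were sequenced apart (run 1). No source used here says whether each library came from its own animal or culture, and a p-value therefore covers the spread among these 8 libraries, which may be technical.

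Chaperones bind unfolded or partly folded proteins and let them fold, and each compartment of the cell has its own set. HSP70 proteins of the cytosol, the endoplasmic reticulum and the mitochondrion hold short stretches of a client while ATP is hydrolysed, J proteins (the DnaJ family) bring the clients and trigger that hydrolysis, and nucleotide exchange factors such as HSP110 and BAG proteins release them. Chaperonins (TRiC in the cytosol, HSP60 with HSP10 in mitochondria) enclose a client in a barrel. Heat and other protein damage activate heat shock factor 1, which switches on a stress-inducible subset, whereas misfolding in the endoplasmic reticulum raises that compartment's chaperones through the unfolded protein response. In muscle, small heat shock proteins also guard the sarcomere.

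Total counts were 16654631 to 20068154 in cultured libraries and 13919440 to 20055185 in fresh libraries. At least 1 count was seen for 15415 to 17852 genes in cultured libraries, 20480 to 20898 in run-2 fresh libraries and 32710 to 34689 in run-1 fresh libraries. The summed level of 8 muscle stem cell markers was 1049 to 1180.2 CPM (counts relative to the scaled library size) in culture and 4050.0 to 5155 CPM in fresh cells. Markers of pericytes and smooth muscle, fibro-adipogenic cells and Schwann cells were low in culture and present in fresh libraries: 8 pericyte and smooth muscle genes summed to 23.2 to 28.6 CPM in culture and 481 to 2851 CPM in fresh cells, 5 fibro-adipogenic genes to 7.59 to 18.9 CPM in culture and 549.8 to 940.2 CPM in fresh cells, and 4 Schwann cell genes to 0.0527 to 3.47 CPM in culture and 49.6 to 796 CPM in fresh cells. Summed blood markers reached at most 5.92 CPM in culture and 68.1 CPM in fresh cells, endothelial markers 38.2 CPM in culture and 34.3 CPM in fresh cells, and myofibre markers 78.9 CPM in culture and 86.4 CPM in fresh cells. In culture Abcc9, Kcnj8, Kdr, Tie1, Ly6a, Lyz2, Sox10 and Myh2 were at 0. Kdr and Tie1 were also at 0 in fresh replicate 5, and Ly6a in fresh replicate 4. The endothelial marker Pecam1 went the other way, at 35.1, 0.103 and 38.1 CPM in culture and 0.195 to 4.50 CPM in fresh cells. Pecam1 did not pass the test (adjusted p = 0.0677, edgeR). In bulk RNA, fewer cells of a type and less RNA per cell cannot be told apart. The part of these other cells in the differences of the chaperone classes was not tested.

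The chaperone genes took a smaller share of all counts in cultured cells, and the share was divided differently among compartments. They held 1.73 ± 0.130% of counts in culture (mean ± SD, n = 3) and 2.79 ± 0.615% in fresh cells (n = 5), and the highest cultured library (1.88%) lay below the lowest fresh one (2.45%). Stress-inducible genes took 0.237 ± 0.0198% in culture and 1.29 ± 0.287% in fresh cells, and chaperones of the endoplasmic reticulum 0.200 ± 0.0179% in culture and 0.635 ± 0.222% in fresh cells. The endoplasmic reticulum difference lay mostly in 1 gene, Hspa5, which averaged 580 CPM in culture and 5186 CPM in fresh cells. Hsp90b1 of the same compartment averaged 758 and 772 CPM. The TRiC chaperonin took more in culture, 0.338 ± 0.0478% against 0.0992 ± 0.0200% in fresh cells, as did mitochondrial chaperones with 0.229 ± 0.0265% against 0.0741 ± 0.0118%. Constitutive cytosolic chaperones overlapped, at 0.578 ± 0.0191% in culture and 0.606 ± 0.179% in fresh cells. Fresh replicate 1 stood above the other fresh libraries with 3.88% against at most 2.59%.

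**Figure D1:**
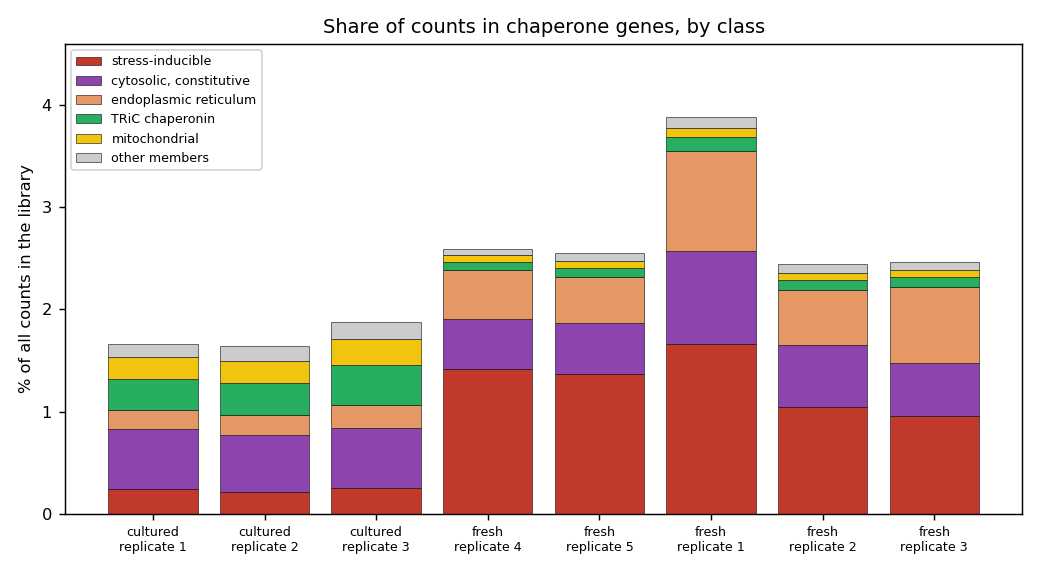
Stacked bars of the percentage of all counts in a library that fell on chaperone genes, coloured by class, for the 3 cultured and 5 fresh libraries, with run-2 fresh replicates 4 and 5 left of run-1 replicates 1 to 3. Cultured bars reach 1.64 to 1.88% and fresh bars 2.45 to 3.88%, with a thinner stress-inducible layer in culture (0.215 to 0.253%, against 0.961 to 1.66% in fresh libraries).

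Of the 100 genes, 83 had enough counts to be tested, 20 were higher and 17 lower in culture at an adjusted p of 0.05 (edgeR quasi-likelihood test with sequencing run as a term, adjusted over all 19054 genes tested), and 46 did not pass. These counts are 24.1% and 20.5% of the tested chaperone genes, and among all genes tested 8.87% were higher and 18.0% lower (26.9% in either direction). The median log2 fold change was 0.03 over the tested chaperone genes and -0.21 over all genes tested, and without scaling factors the median of all genes was 0.03. All 3 cultured libraries lay above all 5 fresh ones for 23 of the 83 genes and below them for 23, against 13.7% and 26.1% of all tested genes. Log2 fold changes here set cultured against run-2 fresh libraries and carry approximate standard errors, while mean levels are given over all fresh libraries. Of the 17 untested genes, 1 had no count in any library, and the highest value in any library was 1.45 CPM, for Dnajb7.

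**Figure D2:**
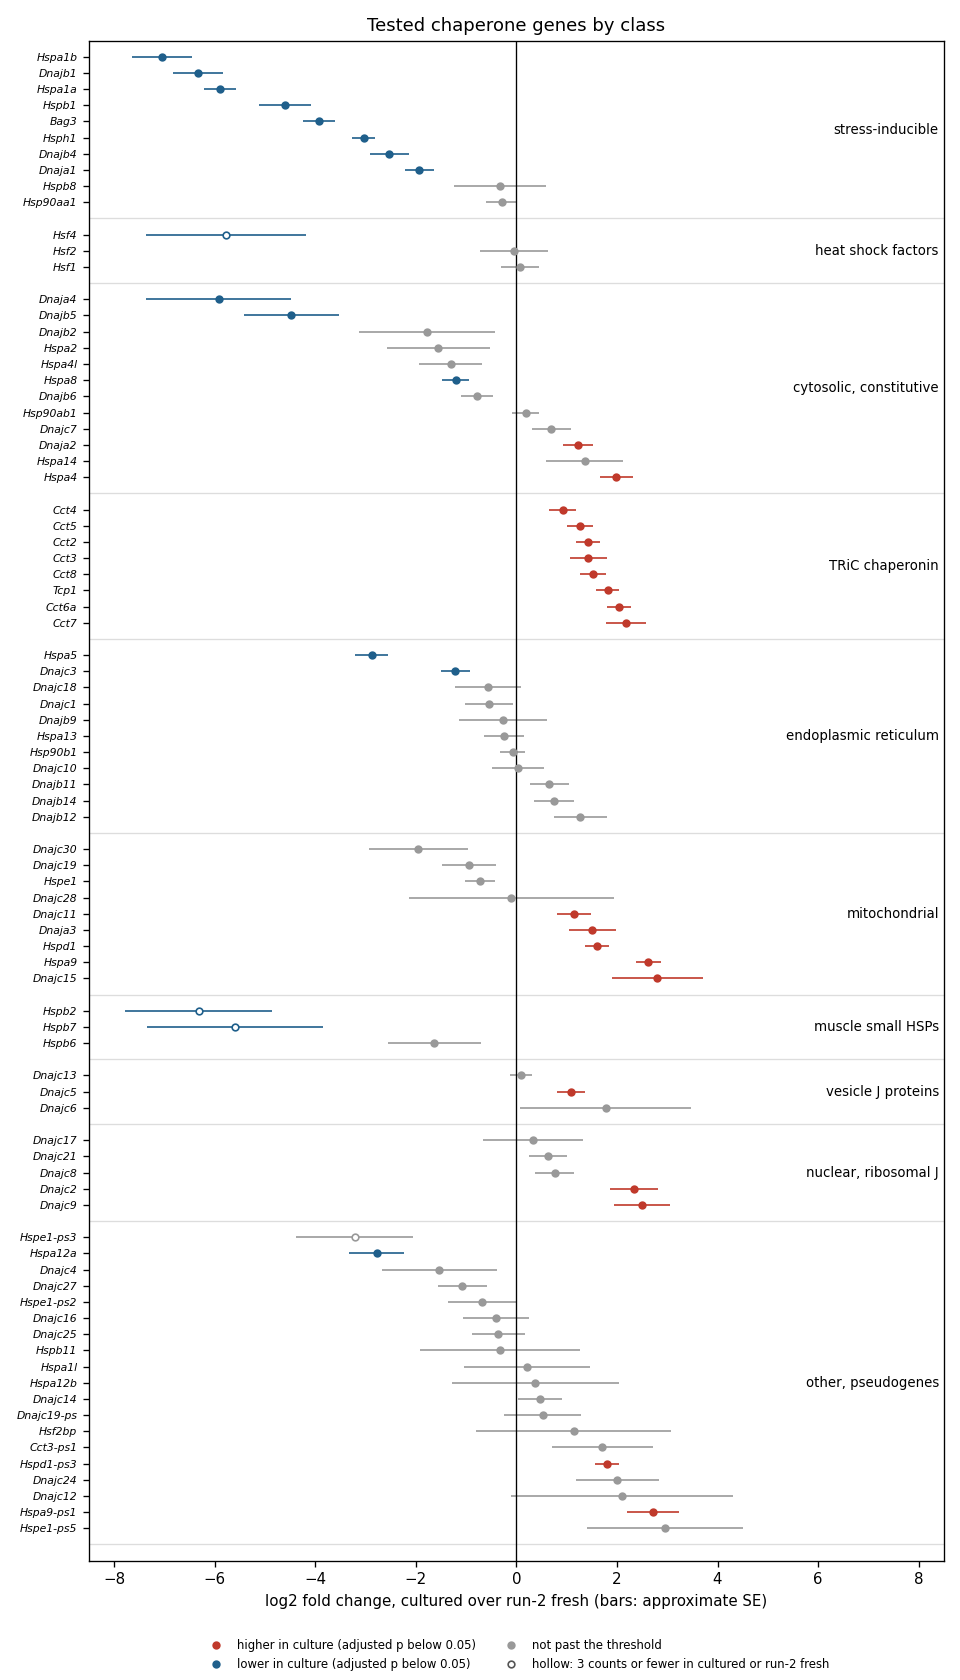
Log2 fold change of cultured over run-2 fresh libraries for the 83 tested chaperone genes, grouped by class, with bars for the approximate standard error and colour for the call at an adjusted p of 0.05. The 8 TRiC subunits all lie right of 0 and 8 of 10 stress-inducible genes are called left of it, while the 4 hollow points (Hspb2, Hspb7, Hsf4 and Hspe1-ps3) had 3 counts or fewer in cultured or run-2 fresh libraries, so that their fitted size is not interpreted.

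The stress-inducible chaperones were far lower in cultured than in fresh cells. Hspa1a and Hspa1b encode inducible HSP70, the classic product of the heat shock response, and lie side by side on mouse chromosome 17 (mm10, GENCODE M21; Hspa1a at 34969190 to 34972156 and Hspa1b at 34956436 to 34959238, both on the minus strand). Their transcripts are 99.3% identical over 2197 aligned bases, so the division of reads between them is uncertain. The 250 bases before each start, from RefSeq's table for GRCm38.p6, are shown because both genes moved together and the windows differ at only 3 positions, printed in capitals (Hspa1a, chr17:34972157-34972406, and Hspa1b, chr17:34959239-34959488, both read on the minus strand):
Hspa1a promoter: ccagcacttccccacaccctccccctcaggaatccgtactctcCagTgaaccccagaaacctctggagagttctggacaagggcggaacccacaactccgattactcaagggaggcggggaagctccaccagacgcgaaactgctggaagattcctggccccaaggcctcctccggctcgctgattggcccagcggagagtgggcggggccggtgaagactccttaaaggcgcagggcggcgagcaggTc
Hspa1b promoter: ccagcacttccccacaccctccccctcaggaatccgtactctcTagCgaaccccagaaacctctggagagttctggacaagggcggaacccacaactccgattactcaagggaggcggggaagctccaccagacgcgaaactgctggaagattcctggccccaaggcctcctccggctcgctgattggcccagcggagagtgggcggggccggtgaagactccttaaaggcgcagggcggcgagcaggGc

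Hspa1a had 91.8, 67.9 and 74.6 CPM in the cultured libraries, against 4924 and 4378 CPM in run-2 fresh cells and 3501, 2236 and 2011 CPM in the run-1 fresh libraries. Every fresh library was more than an order of magnitude above every cultured one, and the log2 fold change was -5.90 ± 0.32 (adjusted p = 2.42e-05, edgeR), or -4.99 (adjusted p = 0.000421) against the run-1 fresh libraries alone. Hspa1b had 8.64, 26.5 and 9.94 CPM in culture, 2164 and 1804 CPM in run-2 fresh libraries and 678, 347 and 333 CPM in run-1 fresh libraries. The groups did not overlap, the runs of fresh cells stood apart from each other, and the log2 fold change was -7.04 ± 0.60 (adjusted p = 0.000188, edgeR), or -4.83 (adjusted p = 0.00234) against the run-1 fresh libraries alone and -7.72 without cultured replicate 2. Summed as 1 gene, which removes the division of reads, the pair had 93.1 ± 8.05 CPM in culture and 4475 ± 2118 CPM in fresh cells (SD, n = 3 and 5), a log2 fold change of -6.15 ± 0.31 (adjusted p = 2.01e-05, edgeR).

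The partners of inducible HSP70 fell with it. Dnajb1 (HSP40), its main stress-inducible J protein, had 20.3, 55.9 and 35.7 CPM in culture, against 3179.8 and 2859.9 CPM in run-2 and 4432, 2634 and 2152 CPM in run-1 fresh libraries. No cultured library came near any fresh one, and the log2 fold change was -6.34 ± 0.50 (adjusted p = 0.000143, edgeR). Hsph1, the inducible HSP110 exchange factor, had 422, 423 and 376 CPM in culture and between 2640.2 and 3994 CPM in the 5 fresh libraries. Its log2 fold change was -3.03 ± 0.23 (adjusted p = 0.000133, edgeR). Bag3, which couples HSP70 to small heat shock proteins and selective autophagy, averaged 48.7 ± 14.1 CPM in culture and 615 ± 147 CPM in fresh cells (-3.92 ± 0.32; adjusted p = 0.000157, edgeR). Hspb1 (HSP25 in mouse), an actin-associated small heat shock protein, averaged 24.8 ± 15.2 CPM in culture and 436 ± 178 CPM in fresh cells (-4.60 ± 0.51; adjusted p = 0.000623, edgeR), with a log2 fold change of -3.63 against run-1 fresh libraries alone and -5.22 without cultured replicate 2. Each of these 4 genes had every cultured library below every fresh one, as had 26.1% of all genes tested.

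Among the 10 stress-inducible genes, 8 fell (80%, against 18.0% of all genes tested) and none rose (against 8.87%). Their median log2 fold change was -3.48, against -0.21 over all genes. The remaining members that fell, Dnajb4 and Dnaja1, depended on the run of the fresh libraries. Dnajb4, a J protein of the same subfamily as Dnajb1, had 56.5, 82.6 and 117 CPM in culture, 512 and 471 CPM in run-2 and 151, 118 and 262 CPM in run-1 fresh libraries (-2.52 ± 0.40; adjusted p = 0.00293, edgeR). Dnaja1, a farnesylated J protein that works with constitutive HSP70, had 208, 164 and 180.2 CPM in culture, 736 and 665 CPM in run-2 and 217, 163 and 311 CPM in run-1 fresh libraries. Its cultured values lay inside the range of run-1 fresh cells, and the log2 fold change of -1.93 ± 0.28 (adjusted p = 0.00217, edgeR) became -0.27 (adjusted p = 0.485) against run-1 fresh libraries alone, where Dnajb4 had -0.98 (adjusted p = 0.0976). With no run term Dnaja1 did not pass either (-1.19; adjusted p = 0.0719, edgeR), and Dnajb4 passed at -1.83.

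Not every stress-inducible gene was lower in culture. Hsp90aa1, the inducible cytosolic HSP90, had 1721, 957 and 1284 CPM in culture, 1738 and 1504 CPM in run-2 and 1243, 759 and 919 CPM in run-1 fresh libraries. The groups overlapped in full and the test was not passed (-0.30 ± 0.30; adjusted p = 0.510, edgeR); the sign was positive without scaling factors. Hspb8, the small heat shock protein that binds Bag3, ranged from 1.22 to 18.3 CPM in culture and from 11.0 to 16.9 CPM in fresh cells (adjusted p = 0.841, edgeR). Of the heat shock factors, Hsf1, the master regulator of the response, averaged 82.0 ± 30.8 CPM in culture and 77.9 ± 14.5 CPM in fresh cells (0.08 ± 0.38; adjusted p = 0.925), and Hsf2 averaged 12.7 ± 5.20 CPM in culture and 13.0 ± 5.14 CPM in fresh cells (adjusted p = 1.00). Hsf4, best known from the lens and named after its values were seen, was called lower (adjusted p = 0.0373, edgeR) from 0 counts in culture and 0.0632 to 1.40 CPM in fresh cells. That call was lost without fresh replicate 1 (adjusted p = 0.0752) and without any 1 cultured replicate (0.0707 to 0.0815). Hsf3 and Hsf5 were too low to test.

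**Figure D3:**
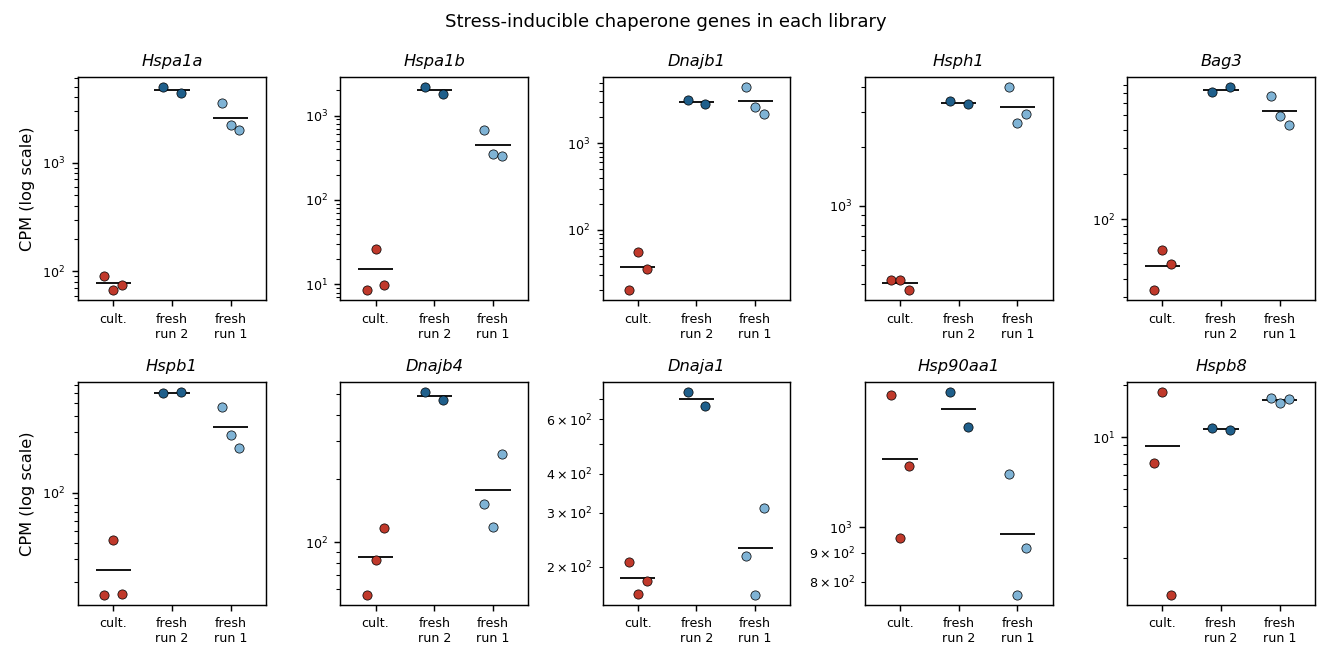
Levels in CPM on a log scale of the 10 stress-inducible chaperone genes in each library, with cultured libraries at the left, then run-2 and run-1 fresh libraries, and a line at each mean. Hspa1a lies at 67.9 to 91.8 CPM in culture and 2011 to 4924 CPM in fresh cells, while Hsp90aa1 and Hspb8 overlap between culture and fresh cells, and Dnaja1 overlaps between culture and run 1.

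Heat shock factor targets outside the chaperone families did not share 1 direction. Of a list of 8 such genes, 3 fell, none rose and 5 did not pass (37.5% lower, against 18.0% of all genes tested). The median log2 fold change of the list was 0.74, against -0.21 over all genes, and the 5 that did not pass all had positive values, between 0.69 (Stip1) and 3.76 (Hspbap1). For 3 of these, Ahsa1, Chordc1 and Hspbap1, every cultured library lay above every fresh one, as for 13.7% of all genes tested. Without scaling factors all 5 were called higher, among them Chordc1 at 1.65 (adjusted p = 0.0171, edgeR). In that setting 2452 of all 19054 genes were called higher, against 1691 with scaling factors. Ubb, which encodes ubiquitin, averaged 215 ± 11.2 CPM in culture and 771 ± 183 CPM in fresh cells (-1.99 ± 0.26; adjusted p = 0.00127, edgeR). Cryab, αB-crystallin, averaged 73.6 ± 43.1 CPM in culture and 211 ± 30.7 CPM in fresh cells (-1.63 ± 0.41; adjusted p = 0.0195, edgeR). Cryab lost the call when fresh replicate 4 or 5 was left out (adjusted p = 0.0723 and 0.113), with run 2 alone (0.0640) and without scaling factors (0.0864), and was -2.21 without cultured replicate 3.

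No chaperone gene passed the edgeR test between the fresh runs. With run-2 set against run-1 fresh libraries, 0 of 83 genes were called by edgeR. Among all genes tested edgeR called 0.0945% higher and 0.0945% lower, or 0.189% in either direction. Among the 83, DESeq2 called 3 higher, Dnaja1, Hspa1b and Dnajc19-ps, and 1 lower, Hspa9-ps1. Of all 19054 genes DESeq2 called 322 higher and 599 lower. In edgeR 8 of the 83 (9.64%) had an unadjusted p below 0.05, against 15.5% of all genes tested. Of these 8, 5 were stress-inducible genes. Hspa1b had a log2 fold change of 2.13 ± 0.50 and Dnaja1 of 1.60 ± 0.28 (adjusted p = 0.0603 for both, edgeR), and Dnajb4 one of 1.47 ± 0.39 (adjusted p = 0.0779). Hspa1a (0.85 ± 0.27; adjusted p = 0.149) and Hsp90aa1 (0.74 ± 0.30; adjusted p = 0.271) completed the group, and Dnajb1 was at -0.03 ± 0.43 (adjusted p = 0.995). With 2 and 3 libraries, sequencing run cannot be told apart from other differences between these samples.

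The constitutive chaperones of the cytosol did not move as a group: of 12 genes, 2 rose (16.7%, against 8.87% of all genes tested), 3 fell (25.0%, against 18.0%) and 7 did not pass, with a median log2 fold change of -0.99. Hsp90ab1, the constitutive HSP90 and the most abundant chaperone transcript of cultured cells per kilobase (967 CPM per kb of exon), had 3364, 2582 and 2754 CPM in culture, 2559 and 2549 CPM in run-2 and 4304, 2844 and 2499 CPM in run-1 fresh libraries. It did not pass the test (0.18 ± 0.27; adjusted p = 0.664, edgeR). Hspa8, the constitutive HSP70 (HSC70) that also strips clathrin from vesicles, had 1493, 1143 and 1129 CPM in culture, 3015 and 2783 CPM in run-2 and 3479, 2253 and 2052 CPM in run-1 fresh libraries. All cultured values were below all fresh ones and the log2 fold change was -1.21 ± 0.27 (adjusted p = 0.0112, edgeR; 0.0738 with fresh replicate 4 left out).

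Hspa4, an HSP110-type exchange factor and relative of Hsph1, went the other way. It had 957, 779 and 836 CPM in culture, against 236 and 196 CPM in run-2 and 293, 141 and 193 CPM in run-1 fresh libraries, with no overlap (1.99 ± 0.33; adjusted p = 0.00366, edgeR). The stress-inducible Hsph1 and Hspa4, which serve the same step of the HSP70 cycle, were thus at 56.0 and 155 CPM per kb in culture and at 446 and 38.3 CPM per kb in fresh cells. Dnaja2, a J protein of constitutive HSP70, rose to 175 ± 14.7 CPM in culture, against 71.1 ± 15.2 CPM in fresh cells (1.23 ± 0.30; adjusted p = 0.0155, edgeR; 0.102 without fresh replicate 5).

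The J protein genes Dnaja4 and Dnajb5 were nearly silent in culture. Dnaja4 had 0, 4.53 and 0.102 CPM in culture and 65.8 to 101 CPM in the 5 fresh libraries (-5.92 ± 1.44; adjusted p = 0.0162, edgeR). The call was lost when fresh replicate 4 or 5 was left out (adjusted p = 0.0556 and 0.0615) and with run 2 alone (0.0792). The log2 fold change was -10.62 without cultured replicate 2, which held nearly all of the cultured counts, -5.28 without cultured replicate 1 and -5.31 without cultured replicate 3. Dnajb5 had 0.211, 2.42 and 0.306 CPM in culture and 19.2 to 52.5 CPM in fresh cells (-4.48 ± 0.94; adjusted p = 0.00881, edgeR; 0.0707 with run 2 alone). Its log2 fold change was -5.38 against run-1 fresh libraries alone, -5.15 with no run term and -6.35 without cultured replicate 2, so the same library held most of the remaining counts of both genes.

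Ranked by CPM per kilobase of exon, the order of the chaperones changed between the groups. In cultured cells the highest were Hsp90ab1 (967 CPM per kb), Hspd1 (387), Hsp90aa1 (336), Hspa8 (292) and Cct2 (200.4), and Hspa1a and Dnajb1 stood at 26.3 and 11.6 CPM per kb. In fresh cells Hspa5, Hspa1a, Hsp90ab1 and Dnajb1 were the highest in both runs, but their order turned with the run. Run-2 fresh libraries averaged 1568 CPM per kb for Hspa1a, 1008 for Hspa5, 943 for Dnajb1 and 852 for Hsp90ab1. Run-1 fresh libraries averaged 1372 CPM per kb for Hspa5, 1072 for Hsp90ab1, 959 for Dnajb1 and 870 for Hspa1a. Exon length is the union of annotated exons, so a gene with many isoforms is placed too low.

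The cytosolic chaperonin rose as a whole. TRiC (also CCT) is a double ring of 8 different subunits that folds actin, tubulin and other clients, and each subunit has its own gene. All 8 genes rose, with log2 fold changes from 0.92 to 2.17 and a median of 1.48, and for each of them every cultured library lay above every fresh one. Among all genes tested 8.87% were called higher, and 13.7% had every cultured library above every fresh one. The 8 levels summed to 3249, 2771 and 3336 CPM in culture, against 1041 and 1016 CPM in run-2 and 1224, 945 and 942 CPM in run-1 fresh libraries.

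Cct6a had 560.1, 685 and 677 CPM in culture, 143 and 169 CPM in run-2 and 119, 102 and 129.8 CPM in run-1 fresh libraries (2.04 ± 0.23; adjusted p = 0.000725, edgeR). Tcp1, the α subunit, had 541, 423 and 546 CPM in culture, 131 and 156 CPM in run-2 and 210.1, 175 and 187 CPM in run-1 fresh libraries (1.81 ± 0.23; adjusted p = 0.00121). Cct7 averaged 384 ± 92.1 CPM in culture and 87.7 ± 28.0 CPM in fresh cells (2.17 ± 0.40; adjusted p = 0.00532). These 3 subunits had the highest fold changes. Cct8 (1.53 ± 0.26; adjusted p = 0.00395), Cct2 (1.42 ± 0.24; 0.00401) and Cct5 (1.26 ± 0.26; 0.00792) were also called, Cct5 with an adjusted p of 0.0573 without fresh replicate 5. Cct3 (1.43 ± 0.37; adjusted p = 0.0203) lost the call without fresh replicate 4 (0.0828) or 5 (0.135).

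Cct4 had the smallest change (0.92 ± 0.27; adjusted p = 0.0327, edgeR), with 319.7, 197 and 245 CPM in culture, 138 and 129 CPM in run-2 and 101, 80.6 and 94.8 CPM in run-1 fresh libraries. It lost the call without any 1 fresh library (adjusted p 0.0517 to 0.143) and with run 2 alone (0.0832), while against run-1 fresh libraries alone it was 1.51 (0.00379). The count of called subunits was 6 and 5 when fresh replicate 4 and 5 were left out in turn, and 7 or 8 in the other alternatives. Without fresh replicate 4 and 5, 908 and 896 of all genes tested were called higher, against 1691 in the main fit. The subunits are built into the ring in equal number, and their levels per kilobase of annotated exon differed. In cultured cells on average Cct2 was the highest (200.4 CPM per kb) and Cct3 the lowest (29.0). Within a library the ratio of highest to lowest was 5.26 to 8.94 in culture and 6.54 to 11.1 in fresh cells. These values depend on the union of annotated exons, 2557 bases for Cct2 and 6370 for Cct3, which may place Cct3 too low. Without length, Cct2 averaged 512 CPM and Cct3 185 CPM in culture.

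**Figure D4:**
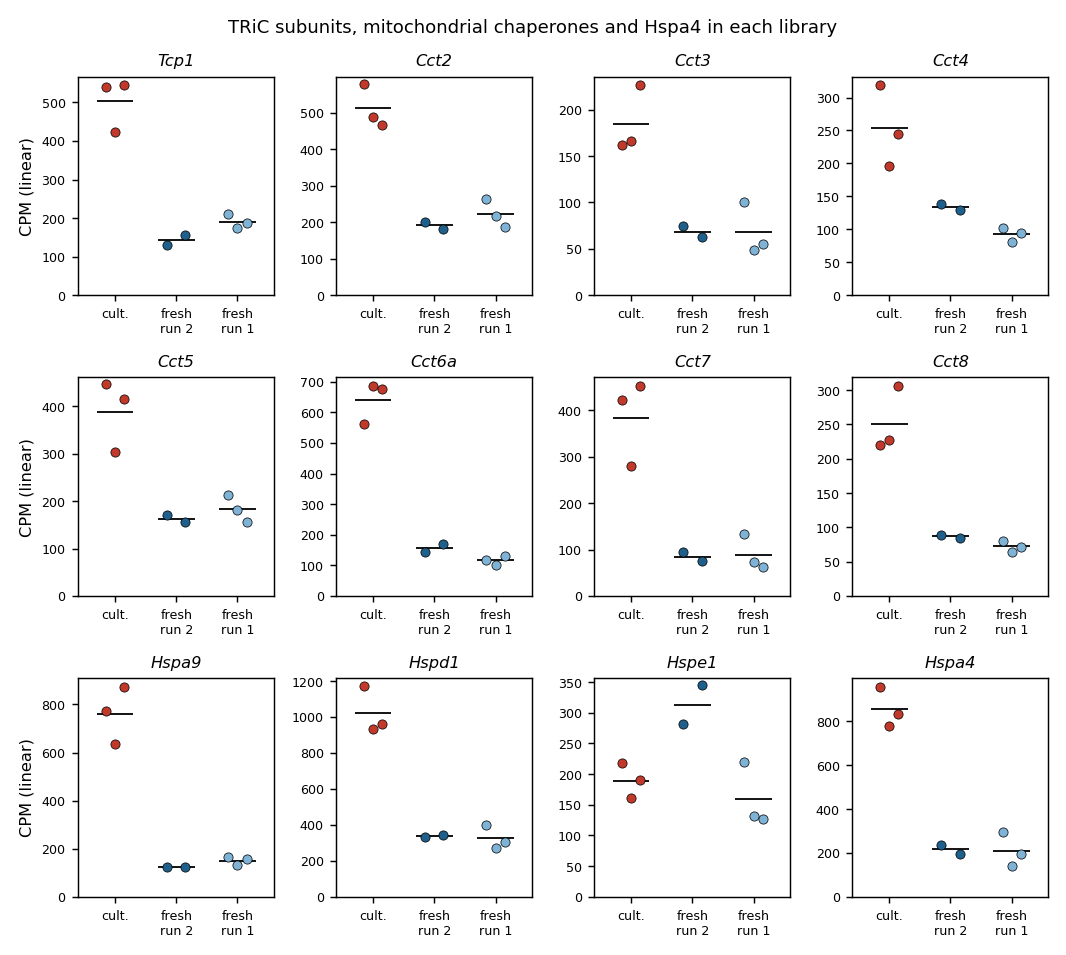
Levels in CPM on a linear scale of the 8 TRiC subunit genes, Hspa9, Hspd1, Hspe1 and Hspa4 in each library, with cultured libraries at the left, then run-2 and run-1 fresh libraries, and a line at each mean. In 11 of the 12 panels the cultured points lie above all fresh points, as they do for 13.7% of all genes tested. In the Hspe1 panel they overlap with the fresh range of 126 to 346 CPM.

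Of 9 mitochondrial chaperone genes 5 rose, none fell and 4 did not pass, with a median log2 fold change of 1.15. The share that rose was 55.6%, against 8.87% of all genes tested. Hspa9 (mortalin), the matrix HSP70 that pulls proteins through the import channel, had 772, 634 and 872 CPM in culture, 122 and 125 CPM in run-2 and 163, 132 and 155 CPM in run-1 fresh libraries. No cultured value came near a fresh one, and the log2 fold change was 2.62 ± 0.24 (adjusted p = 0.000271, edgeR). Hspd1, the HSP60 chaperonin, had 1171, 934 and 962 CPM in culture, 333 and 342 CPM in run-2 and 401, 272 and 305 CPM in run-1 fresh libraries (1.60 ± 0.24; adjusted p = 0.00262, edgeR).

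Hspe1 encodes HSP10, the lid of the HSP60 barrel, and had 217, 161 and 189.8 CPM in culture, 281 and 346 CPM in run-2 and 219.6, 132 and 126 CPM in run-1 fresh libraries. It did not pass the test (-0.73 ± 0.29; adjusted p = 0.0988, edgeR), and its log2 fold change against run-1 fresh libraries alone was 0.31. Hspd1 and Hspe1 are annotated head to head on chromosome 1 (mm10, GENCODE M21; Hspd1 at 55077835 to 55088243 on the minus strand and Hspe1 at 55088132 to 55091307 on the plus strand), and their annotated ends overlap, where reads cannot be assigned without strand. The interval between a RefSeq start of each gene (chr1:55087933-55088147, GRCm38.p6, plus strand) is shown because both genes share it while only Hspd1 rose, and the capitals mark its heat shock elements, the binding motif of heat shock factors:
Hspe1 and Hspd1 interval: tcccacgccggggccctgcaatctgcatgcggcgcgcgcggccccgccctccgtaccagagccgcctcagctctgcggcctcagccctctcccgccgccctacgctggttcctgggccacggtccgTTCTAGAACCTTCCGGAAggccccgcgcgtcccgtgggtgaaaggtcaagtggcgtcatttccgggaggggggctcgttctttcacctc
The capitals hold 2 overlapping matches to 3 inverted units (GAA, 2 bases, TTC, 2 bases and GAA, on either strand), at positions -89 to -77 and -84 to -72 from the Hspe1 start. Within 250 bases before to 50 after a start this motif was found for Hspd1, Hspe1, Dnajb6 and Hsph1 among 72 chaperone genes in the table. It was found for 0.662% of all 27025 genes and in 0.603% of all 32851 windows. Hspd1 and Hspe1 hold the same matches, and the Hsph1 match lies after its start, at 36 to 48 or 15 to 27 by the start used. Hspa1a and Hspa1b hold no match to these letters in their windows. Of the genes with a match, Hsph1 fell, Hspd1 rose, and Hspe1 and Dnajb6 (-0.78 ± 0.32; adjusted p = 0.106) did not pass.

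The other mitochondrial genes that rose were J proteins at lower levels. Dnajc15, of the import motor, had 9.38, 23.7 and 39.2 CPM in culture and 0.780 to 4.74 CPM in fresh cells (2.80 ± 0.90; adjusted p = 0.0490, edgeR). Dnaja3, the matrix J protein, averaged 43.9 ± 15.1 CPM in culture and 18.1 ± 4.80 CPM in fresh cells (1.51 ± 0.47; adjusted p = 0.0433), and Dnajc11, named after its values were seen, averaged 50.1 ± 6.48 CPM in culture and 27.1 ± 4.42 CPM in fresh cells (1.15 ± 0.33; adjusted p = 0.0333). Each of the 3 lost the call in at least 10 alternatives, among them leaving out any 1 fresh library, and the count of mitochondrial genes called higher was 2 there, Hspa9 and Hspd1. With any 1 fresh library left out, 896 to 1379 of all genes were called higher, against 1691 in the main fit. The log2 fold change of Dnajc15 was 4.15 against run-1 fresh libraries alone, 3.43 with no run term and 3.54 without fresh replicate 4. The 4 mitochondrial genes that did not pass all had negative log2 fold changes. Besides Hspe1 these were Dnajc30 (2.89 ± 2.35 CPM in culture and 7.91 ± 3.59 CPM in fresh cells; -1.95, adjusted p = 0.176), whose cultured libraries all lay below the fresh ones, Dnajc19, of the import motor (23.8 ± 15.5 CPM in culture and 32.8 ± 13.7 CPM in fresh cells; -0.94, adjusted p = 0.235), and Dnajc28 (-0.10). They were named after their values were seen. Dnajc19 was called lower without cultured replicate 2 (-1.59; adjusted p = 0.0384, edgeR), and Dnajc28 without cultured replicate 3 (0.0120), which held all of its cultured counts. Lonp1, a matrix protease that degrades misfolded proteins, was the only called gene of 11 other endoplasmic reticulum and mitochondrial partners, at 90.4 ± 37.0 CPM in culture and 22.2 ± 4.89 CPM in fresh cells (2.26 ± 0.47; adjusted p = 0.00820, edgeR; 0.0635 without fresh replicate 5).

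In the endoplasmic reticulum Hspa5 and Dnajc3 fell, and most genes did not pass. Hspa5 (BiP), the HSP70 of that compartment and a standard readout of the unfolded protein response, had 396, 650.5 and 693 CPM in culture, 4504 and 4025 CPM in run-2 and 7566, 3967 and 5869 CPM in run-1 fresh libraries. The lowest fresh library was far above the highest cultured one, and the log2 fold change was -2.88 ± 0.33 (adjusted p = 0.000741, edgeR). Hsp90b1 (GRP94), the HSP90 of the same compartment, had 824, 697 and 752 CPM in culture, 832 and 767 CPM in run-2 and 849, 534 and 876 CPM in run-1 fresh libraries. Its groups overlapped and it did not pass (-0.08 ± 0.25; adjusted p = 0.868, edgeR); the sign was positive without scaling factors. Dnajc3 (p58IPK), a J protein of BiP that also restrains the kinase PERK, averaged 73.8 ± 20.8 CPM in culture and 185 ± 26.2 CPM in fresh cells (-1.21 ± 0.28; adjusted p = 0.0135, edgeR), with an adjusted p of 0.0624 and 0.0524 when fresh replicate 4 and 5 were left out in turn.

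These 3 genes are the chaperone genes whose promoter windows hold an endoplasmic reticulum stress response element, searched as CCAAT, 9 bases and CCACG on both strands. Of all 27025 genes 0.137% hold it, and of all windows 0.119%. The stretches with the matches in capitals are shown because the motif is shared by Hspa5 and Dnajc3, which fell, and Hsp90b1, which did not pass (RefSeq, GRCm38.p6; Hspa5 chr2:34771940-34772089 plus strand, Hsp90b1 chr10:86705515-86705674 minus strand, Dnajc3 chr14:118937772-118937891 plus strand):
Hspa5 promoter: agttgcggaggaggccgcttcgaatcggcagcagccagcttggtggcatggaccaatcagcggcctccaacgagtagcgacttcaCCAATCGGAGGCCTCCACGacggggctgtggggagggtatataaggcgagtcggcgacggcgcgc
Hsp90b1 promoter: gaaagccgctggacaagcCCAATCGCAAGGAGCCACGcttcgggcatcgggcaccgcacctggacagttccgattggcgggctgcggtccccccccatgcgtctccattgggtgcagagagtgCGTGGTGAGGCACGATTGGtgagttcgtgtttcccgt
Dnajc3 promoter: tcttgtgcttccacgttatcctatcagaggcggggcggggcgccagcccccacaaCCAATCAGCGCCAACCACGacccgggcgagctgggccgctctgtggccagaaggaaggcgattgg
Hspa5 has 1 match at positions -65 to -47 from its start, Hsp90b1 has 2, at -212 to -194 and -107 to -89, and Dnajc3 has 1 at -105 to -87. Of the 11 chaperone genes of the compartment, 2 fell, none rose and 9 did not pass, with a median log2 fold change of -0.24. The share that fell was 18.2%, close to the 18.0% of all genes tested. Without scaling factors Dnajb12 (1.64) and Dnajb14 (1.12) were called higher, as were 2452 of all 19054 genes, against 1691 with scaling factors. Those not called include the lumenal J proteins Dnajb11 (77.5 ± 19.7 CPM in culture and 68.1 ± 24.6 CPM in fresh cells) and Dnajb9 (69.8 ± 78.7 CPM in culture and 58.7 ± 34.1 CPM in fresh cells), the second of which had a wide spread in culture.

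Ratios within a library, which no scaling between libraries can move, set the forms of a chaperone against each other. The log2 ratio of summed Hspa1a and Hspa1b to Hspa8 was -3.74 ± 0.15 in culture and 0.61 ± 0.54 in fresh cells (SD, n = 3 and 5), a difference of -4.35. As a linear ratio of counts, with no correction for length, it was 0.0673 to 0.0826 in the cultured libraries and 1.14 to 2.35 in the fresh ones. Hspa5 to Hspa8 differed by -2.06, Hspa9 to Hspa8 by 3.54 and Hspd1 to Hspe1 by 1.75, each with no overlap between groups. The HSP90 ratios of cultured libraries overlapped with those of the 5 fresh ones: Hsp90aa1 to Hsp90ab1 differed by 0.13 (exact permutation p = 0.750) and Hsp90b1 to Hsp90ab1 by -0.01 (p = 1.00). In an exact two-sided permutation test the 4 ratios without overlap reached p = 0.0357, the smallest that 3 against 5 libraries can give, and after adjustment over the 6 ratios p = 0.0536, which fails the correction.

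The ratios also carried a difference between runs. Hsp90aa1 to Hsp90ab1 was higher in run-2 than in run-1 fresh libraries by 1.05 on the log2 scale, and the cultured minus run-2 fresh difference was -0.51, so its sign depends on the run used. Hsp90b1 to Hsp90ab1 differed by 0.41 between run-2 and run-1 fresh libraries and by -0.25 between cultured and run-2 fresh libraries. Set against run 2 alone, all 3 cultured libraries were lower in both HSP90 ratios. Inducible to constitutive HSP70 was higher by 0.97 in run-2 fresh libraries, and culture differed from run 2 by -4.94. Hspd1 to Hspe1 differed by -0.95 between run-2 and run-1 fresh libraries, and cultured cells differed from run 2 by 2.32. Within run 2 Hspa5 to Hspa8 differed by -1.70 and Hspa9 to Hspa8 by 3.83.

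**Figure D5:**
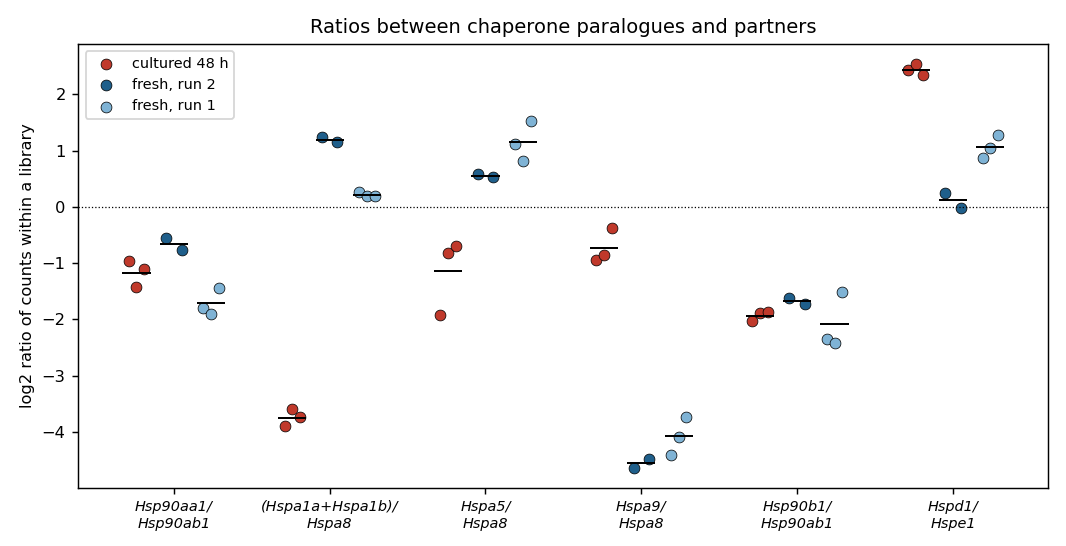
Log2 ratio of counts between 2 genes within each library, for 6 ratios, with cultured libraries left of run-2 and run-1 fresh libraries and a line at each mean; a value of 0 means equal counts. Cultured libraries lie at -3.89 to -3.60 for inducible over constitutive HSP70, where all fresh libraries lie above 0, and overlap with the fresh libraries of both runs together for both HSP90 ratios.

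J proteins of the nucleus and ribosome rose in part, with 2 of 5 called (40%, against 8.87% of all genes tested). Dnajc2 (MPP11 or ZRF1), which assists nascent chains at the ribosome, had 137, 162 and 222 CPM in culture, 23.6 and 45.0 CPM in run-2 and 41.7, 18.5 and 21.3 CPM in run-1 fresh libraries (2.34 ± 0.48; adjusted p = 0.00788, edgeR; 0.0638 with fresh replicate 4 left out). Dnajc9, a J protein that chaperones histones, had 59.1, 38.1 and 86.4 CPM in culture, 12.3 and 9.45 CPM in run-2 and 4.16, 7.48 and 9.12 CPM in run-1 fresh libraries (2.50 ± 0.55; adjusted p = 0.0109, edgeR). Without fresh replicate 4 or 5 the adjusted p of Dnajc9 was 0.0501 and 0.0774, and its log2 fold change against run-1 fresh libraries alone was 3.21. Of the vesicle J proteins, Dnajc5 (cysteine string protein) averaged 125 ± 22.9 CPM in culture and 75.1 ± 16.8 CPM in fresh cells (1.09 ± 0.28; adjusted p = 0.0193, edgeR), which was 0.60 against run-1 fresh libraries alone (adjusted p = 0.0741), 0.73 with no run term (0.0518) and 0.94 without fresh replicate 4 (0.112). Dnajc13, of endosomes, averaged 147 ± 15.9 CPM in culture and 134 ± 10.5 CPM in fresh cells and did not pass (0.09 ± 0.22; adjusted p = 0.827).

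The small heat shock proteins placed in the muscle class (Hspb2, Hspb3, Hspb6 and Hspb7) were low throughout. Hspb1 and Cryab, described above, were not low in fresh cells. Hspb6 ranged from 0.527 to 4.27 CPM in culture and from 5.53 to 11.4 CPM in fresh cells (-1.63 ± 0.93; adjusted p = 0.227, edgeR). Hspb2 and Hspb7, named after their values were seen, had 2 counts and 1 count over all cultured libraries and were called lower (adjusted p = 0.0132 and 0.0440), from 0.855 to 4.49 and 0.261 to 8.04 CPM in fresh cells. Hspb2 lost the call with run 2 alone (0.0629), and Hspb7 without any 1 cultured library (0.0617 to 0.0952) and without scaling factors (0.0549). Of the pericyte markers 7 of 8 were also called lower. Of the myofibre markers 4 of 10 were called lower and none higher, 4 others had positive log2 fold changes that did not pass (among them 3.10 for Acta1), and their sums overlapped, at 19.7 to 78.9 CPM in culture and 60.7 to 86.4 CPM in fresh cells. The part of these cells in the small heat shock protein values was not tested.

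Outside these classes Hspa12a, a distant HSP70 relative, fell to 16.0 ± 10.8 CPM in culture, against 133 ± 26.4 CPM in fresh cells (-2.78 ± 0.54; adjusted p = 0.00663, edgeR). Of the 11 pseudogene lines, 7 were tested and 2 were called, both higher (28.6% of those tested, against 8.87% of all genes). Hspd1-ps3, a processed copy of Hspd1 with 99.0% identity over 1722 bases, averaged 329 ± 21.4 CPM in culture and 98.8 ± 11.7 CPM in fresh cells (1.80 ± 0.23; adjusted p = 0.00126, edgeR), and Hspa9-ps1 averaged 32.1 ± 8.47 CPM in culture and 9.76 ± 4.49 CPM in fresh cells (2.72 ± 0.51; 0.00593), which was 1.36 against run-1 fresh libraries alone and 1.72 with no run term. Reads of a gene and its copy cannot be told apart where they are identical. With its 2 pseudogene lines added, Hspd1 reached 1351 ± 141 CPM in culture and 429.7 ± 57.9 CPM in fresh cells, of which the copies held 24.3% in culture and 23.1% in fresh cells.

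Co-chaperones that are not heat shock or DnaJ proteins were also counted. Of 43 genes on the lists of co-chaperones, prefoldin and TRiC partners, organelle partners and other heat shock factor targets, 5 rose and 4 fell, with a median log2 fold change of 0.62. These shares are 11.6% and 9.30%, against 8.87% higher and 18.0% lower over all genes tested. On the list of 19 co-chaperones of HSP70 and HSP90 the shares were 15.8% higher and 0% lower. Among 19 co-chaperones of HSP70 and HSP90, 3 rose and none fell: Ppid (cyclophilin 40) at 204 ± 39.2 CPM in culture and 44.9 ± 20.6 CPM in fresh cells (1.62 ± 0.31; adjusted p = 0.00603, edgeR), Bag1 at 126 ± 43.6 CPM in culture and 45.4 ± 11.7 CPM in fresh cells (1.20 ± 0.37; 0.0419) and Hspbp1, named after its values were seen (2.68 ± 0.86; 0.0489). Bag1 kept the call without fresh replicate 1 or cultured replicate 2 but not without any of the other libraries (0.0555 to 0.181), Hspbp1 lost it without any 1 fresh library and without cultured replicate 1 (0.0654 to 0.218), and Ppid was 2.79 against run-1 fresh libraries alone. Prefoldin, which hands new chains to TRiC, was divided. On the list of prefoldin and TRiC partners 11.1% rose and 11.1% fell, against 8.87% and 18.0% of all genes tested. Of 9 prefoldin and TRiC partner genes, Pfdn1 rose, with 23.7 ± 3.71 CPM in culture and 4.69 ± 0.988 CPM in fresh cells (2.07 ± 0.59; adjusted p = 0.0299, edgeR), a call lost without any of fresh replicates 2 to 5 (0.0529 to 0.132). Pfdn5 fell, with 20.9 ± 6.76 CPM in culture and 91.2 ± 30.0 CPM in fresh cells (-2.53 ± 0.35; adjusted p = 0.00164, edgeR), which was -1.73 against run-1 fresh libraries alone, and the other 7 did not pass.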

How the data were processed

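Per the labels' protocols, RNA was isolated with a Qiagen micro kit, amplified with NuGEN Ovation v2 and built into Illumina libraries, and the submitters' processing notes name STAR, RSEM and mm10, without versions or annotation. The authors deposited RSEM expected counts in a table of 45798 gene lines. Of values above 0, 50.1% were not whole and all were rounded, 92 ERCC lines were dropped, and 2423 lines without an identifier (0.385 to 0.568% of counts) stayed in. Coordinates and exon lengths come from GENCODE M21.

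Genes were kept by filterByExpr (19054), scaled by TMM (factors 0.790 to 1.18) and tested with the edgeR 4.0.16 quasi-likelihood test (R 4.3.3) with run and culture as terms, 5 residual degrees of freedom and Benjamini-Hochberg adjustment over all genes at 0.05. All cultured libraries were in run 2, and the culture term therefore sets them against run-2 fresh cells. Every p-value on a log2 fold change is from edgeR unless DESeq2 1.42.0 is named. Standard errors are approximate. CPM rests on the scaled library size, and kits without molecular identifiers leave amplification copies in the counts. The 6 ratios were tested by exact permutation of the 8 libraries (scipy 1.17.1). The script was checked on simulated data, in which few of the smaller changes were called. A gene that did not pass is therefore not shown to be unchanged.

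Named genes are all stress-inducible and TRiC genes, those of the ratios, Hsf1 and Hsf2, and in other classes up to 4 called genes (3 on lists of other genes) with the largest fold change and a mean of at least 10 CPM, or the 2 most abundant. Members, classes and lists were chosen with earlier results of these data known. Alternatives were other scalings, filters, DESeq2, no run term, run 2 alone, run-1 fresh libraries alone, a replicate block, mitochondrial transcripts left out and each library left out. No 2 libraries agreed within sampling noise (chi-square per degree of freedom at least 41.1). RefSeq's promoter table held 72 of the 100 members. A further gene that the rule names is not reported here.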

Additional observations from a re-analysis of the deposited data

Results flagged for a closer look

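Hsp90ab1, the constitutive cytosolic HSP90, had 4304 CPM in fresh replicate 1, against 2499 to 2844 CPM in the other fresh libraries. The gap to the nearest library was 0.809 of the range of the group, above Dixon's critical value of 0.71 for 5 samples. Of 47 groups of values checked in this way it was the 1 that stood out. Chance flags about 1 group in 20, so 1 of 47 is no more than chance gives. In the same library the summed share of all chaperone genes was 3.88% of counts, also the highest of the fresh libraries. That share includes the counts of Hsp90ab1, so it is not a fully separate observation. Classes without Hsp90ab1 were also highest in fresh replicate 1. Stress-inducible genes held 1.66% there, against at most 1.42% in other fresh libraries, and endoplasmic reticulum genes 0.976% against at most 0.739%. TRiC genes held 0.132% against at most 0.102%, and mitochondrial genes 0.0940% against at most 0.0758%. The muscle small heat shock proteins were instead lowest there, at 0.000733%. The cause was not tested.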

How the results depend on the processing

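Of 328 values recomputed with 1 library left out, 292 kept their direction and side of the threshold, 31 lost the call and 5 reversed, and of 411 recomputed under another setting the numbers were 372, 21 and 18. Against 20 members higher in culture, leaving out 1 library gave 12 to 20, the lowest when fresh replicate 4 or 5 was left out, and against 17 lower it gave 13 to 18. In the same fits 896 to 2198 of all genes were called higher and 2441 to 3965 lower. The calls of higher genes were 908 and 896 without fresh replicate 4 and 5, against 1691 in the main fit. Without scaling factors 22 were higher and 16 lower, while the calls over all genes shifted to 2452 higher and 2857 lower, against 1691 and 3431. Between fresh runs the count of members called higher was 1 without a low-count filter, 3 with DESeq2 and 0 to 1 with 1 library left out, and called lower it was 1 with DESeq2. Over all genes, 50 were called higher without a low-count filter and 1 to 70 with 1 library left out. DESeq2 called 322 of all genes higher and 599 lower. With run 2 alone the ratio differences were -0.51 for Hsp90aa1 to Hsp90ab1, -4.94 for Hspa1a with Hspa1b to Hspa8 and 2.32 for Hspd1 to Hspe1, and with pseudogene lines added, chosen after seeing the data, the last was 1.78. The log2 fold changes that reversed belonged to genes that were not called. Without scaling factors they were 0.39 for Hsf2, 0.10 for Hsp90aa1, 0.33 for Hsp90b1 and 0.084 for Hspb8. With no run term they were 0.10 for Hsp90aa1 and -0.025 for Hsp90ab1. Against run-1 fresh libraries alone they were 0.049 for Hsf2, 0.49 for Hsp90aa1, -0.091 for Hsp90ab1, 0.068 for Hsp90b1 and 0.31 for Hspe1. Hsf2 was 0.012 without a low-count filter, 0.0039 with genes at 1 CPM or more in 3 libraries and 0.014 with mitochondrial transcripts left out. With 1 library left out, Hsf1 ran between -0.17 and 0.37, Hsf2 between -0.50 and 0.78, Hsp90b1 between -0.12 and 0.027 and Hspb8 between -1.45 and 0.22. The cause was not tested.

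Whether replicate numbers pair the libraries was not settled. Deviations of same-numbered cultured and fresh libraries correlated at 0.010 to 0.030, and those of other numbers at -0.018 to 0.0096. Values this small, from 3 libraries per group in different runs, cannot show whether the libraries were paired. Every library numbered 1 to 3 correlated best with its own number, a hint from the data and not from the design. With a replicate block over the libraries numbered 1 to 3, 16 members were higher and 12 lower. Over all 18339 genes tested in that setting, 1347 were higher and 1384 lower. Of the members, Dnaja1 (-0.22), Dnajb4 (-0.97), Dnaja3 (1.19), Dnajc5 (0.59), Dnajc11 (0.79), Hspa9-ps1 (1.33) and Hspb2 (adjusted p = 0.0682, edgeR) were then not called and Hspb7 and Hsf4 not tested, and Hsp90aa1 (0.49), Hsp90ab1 (-0.056), Hsp90b1 (0.10) and Hspe1 (0.35) changed sign. On the other lists Cryab (-1.53), Pfdn1 (adjusted p = 0.0604, edgeR) and Hspbp1 (1.48) lost the call, and Chordc1 (2.61), Ptges3 (2.11) and Sugt1 (1.92) gained one. Low counts limit Hspb7, Hsf4, Hspb2 and Hspe1-ps3, which had at most 3 counts in 1 of the groups.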
